A study of Mus musculus with 2 samples.

Results

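Neutrophils change the genes they use as they mature, and 9 genes were taken to mark the stages, as Mpo and Elane for early granules, Ngp for late granules, and S100a8, S100a9, Cxcr2, Csf3r, Il1b and Retnlg for mature cells. They were measured in whole lung of 2 groups of C57BL6/N mice. The HSP27 transgenic lung came from mice that overexpress a small chaperone, heat shock protein 27, whose mouse gene is Hspb1, and the control lung from C57BL6/N mice with no transgene named. Both were labelled male and 6 weeks old, and both were taken 14 days after bleomycin at 1.25 mg/kg into the trachea, a drug that injures the alveoli and is used to model pulmonary fibrosis. There was 1 array per group and no lung without bleomycin, and the labels name no promoter, species or line for the transgene and do not say whether animals were pooled. Each gene had 1 probe, chosen by matching the RefSeq accession of the probe without its version to the gene symbol, and all 9 were among the 15495 genes measured on both arrays.

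Neutrophils are short-lived white blood cells that are made in the bone marrow and enter injured lung from the blood. As they mature they switch on their genes in sequence. Precursors first make the proteins of the early (azurophil) granules, then those of the late (specific and gelatinase) granules, and mature cells carry the receptors for chemokines and growth factors by which they leave the marrow and find inflamed tissue. Messages for early granule proteins are therefore found mostly in marrow precursors, and those of mature cells in circulating and tissue neutrophils.

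With 1 array per group, nothing is known of the spread between animals, no test was possible and no p-value is given. The number of arrays limits the precision. Signals were scaled by subtracting from each log2 value the 75th percentile of that array, so that 0 is that percentile, and log2 differences have the HSP27 transgenic value first, minus that of C57BL6/N. A gene was called higher or lower when it was past 1.5-fold, a log2 difference of 0.58. The error given with a difference is the scanner software's own error of the processed signal on both arrays combined, which covers the measurement of a spot and not the animals. Levels of different probes were not set against each other, since probes differ in brightness.

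The arrays differed in more than the transgene. Hspb1 was at 0.24 ± 0.20 (software error), from a probe that read 53554 on the HSP27 transgenic array and 41040 on the C57BL6/N array, and the mouse probe may not report the transgene. All 9 markers of lung tissue were measured, with 0 higher, 2 lower (Cldn5 of endothelium at -1.02 and Hopx of alveolar epithelium at -0.63) and a median difference of -0.19. Markers of cardiac muscle (6 of 6 measured genes higher, median 3.80), fat cells (3 of 3, median 5.27), stratified and basal epithelium (6 of 6, median 2.50) and airway secretory cells (7 of 8, median 6.19) were higher on the HSP27 transgenic array, and 2 more cardiac and 3 more fat cell genes were well above background there alone. The summed scaled signal of these lists, in multiples of the 75th percentile, was 26.1 for cardiac muscle, 19.6 for fat, 4.66 for stratified epithelium and 509 for airway cells on the HSP27 transgenic array. On the C57BL6/N array it was 3.46, 0.217, 0.825 and 292 for the same lists in that order. Such sums weigh bright probes most. The brightest airway marker, Scgb1a1, read 360194 on the HSP27 transgenic array and 371107 on the C57BL6/N array, a difference of -0.19, unlike the rest of its list. Against the label, the C57BL6/N array held signal of Xist, the RNA of the inactive X chromosome of female cells, which was not well above background on the HSP27 transgenic array and at least 36.8-fold lower there. The HSP27 transgenic array had more signal of 3 Y-linked genes, with Eif2s3y at 1.91, Uty at 1.93 and Ddx3y at 2.11. Eif2s3y read 3338 on the HSP27 transgenic array and 800 on the C57BL6/N array, and Ddx3y 2437 and 508 in the same order. The C57BL6/N array thus held Xist and Y-linked signal together. Markers of other tissues, transgene and sex-linked signal all differed between this pair of arrays, and their parts in the results below cannot be told apart.

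Over the 9 genes the difference was small in most and downward in the few that passed the threshold. Cxcr2, the receptor for neutrophil-attracting chemokines, was 2.42-fold lower in the HSP27 transgenic lung, and the late granule gene Ngp was 1.504-fold lower. At 1.5-fold, 0 of the 9 genes were higher and 2 lower, beside 10.2% higher and 8.31% lower among all 15495 measured genes. Past 2-fold there were 0 higher and 1 lower, beside 3.81% and 1.87% of all genes. The median of the 9 differences was -0.07, and that of all measured genes was -0.04. The signs were mixed, with 4 above 0 and 5 below. In whole lung, fewer neutrophils and less of a message per neutrophil cannot be told apart. Beside those shares, counts over so few genes show nothing particular to the set.

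**Figure D1:**
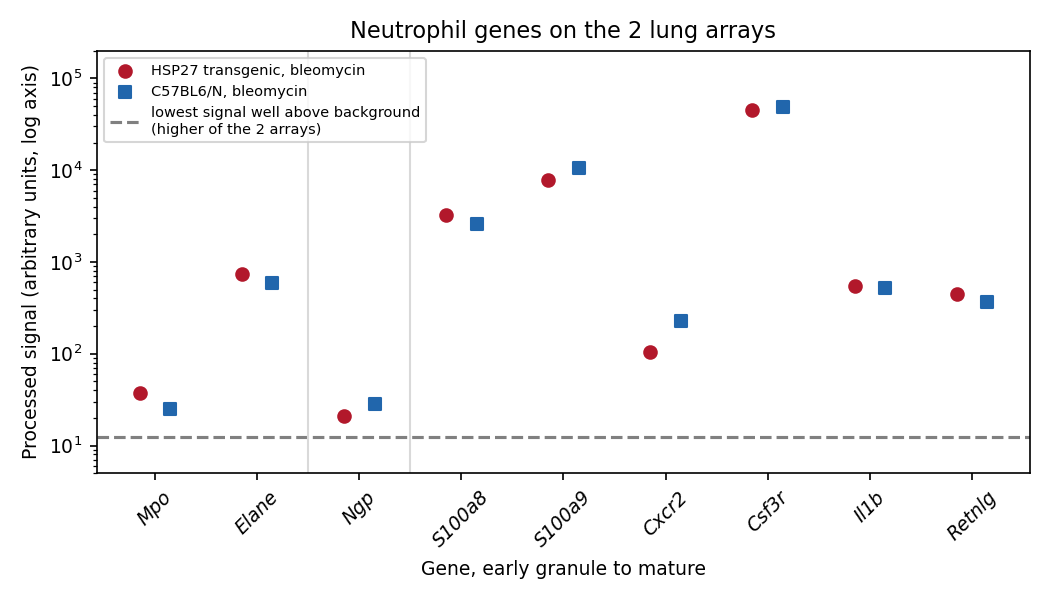
Processed signal of the 9 neutrophil genes (log axis, arbitrary units) on the HSP27 transgenic array (circles) and the C57BL6/N array (squares), 1 spot each except Il1b, the mean of 10 spots. All points lie above the dashed line, the lowest signal called well above background (12.5), with Ngp and Mpo nearest to it.

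The early granule genes were both above 0 and below the threshold. Mpo encodes myeloperoxidase, which makes hypochlorous acid in the azurophil granule. Its signal was 37.7 on the HSP27 transgenic array and 24.8 on the C57BL6/N array, a scaled level of -5.24 against -5.70. The difference was 0.45 ± 0.27 (software error), or 1.37-fold. These readings were 3.02 and 2.08 times the lowest signal called well above background on their arrays (12.5 and 11.9), so that Mpo was measured close to the limit of detection.

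Elane encodes neutrophil elastase, a serine protease of the same granule that cleaves elastin and other matrix proteins. It read 741 on the HSP27 transgenic array and 586 on the C57BL6/N array, a scaled level of -0.95 against -1.14. The difference of 0.19 ± 0.20 was within the software error. It was wider than the repeat-spot spread of 0.09, from probes of like brightness printed in several spots. Mpo and Elane differed from each other in their differences by 0.26 ± 0.34. That gap was within the software error and wider than the combined repeat-spot spread of 0.19, and neither measure covers the animals. The pair therefore gave no difference past the threshold at the precursor stage.

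Other genes of the precursor stage were listed to see whether the pair stood alone. Of 10 listed genes 6 were measured, with 0 higher and 0 lower and a median of 0.16. The 6 were Gfi1, Cebpe, Cebpa, Srgn, Cd63 and Myb, while Prtn3, Ctsg, Ms4a3 and Fcnb were not among them. The part of other lung cells in the signal of the 6 was not tested. Cebpe, a transcription factor of late granule production, was at 0.46 ± 0.26, with 55.5 on the HSP27 transgenic array and 36.5 on the C57BL6/N array. Prtn3, the proteinase 3 of azurophil granules, was well above background on the HSP27 transgenic array alone (29.1 there and 12.4 on the C57BL6/N array). The scaled readings, both faint, differed 2.12-fold. This is no lower bound, since the C57BL6/N reading was above the lowest signal called well above background on that array (11.9). Ctsg, the granule protease cathepsin G, Ms4a3, a marker of granulocyte and monocyte precursors, and Fcnb, a ficolin of immature granulocytes, were not well above background on either array. Markers of cycling cells, a state of precursors, had a median of -0.05 over 6 genes, with 1 lower, Mki67 (-0.77).

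Ngp, neutrophilic granule protein, is a cystatin-related protein of the late granules and represents their stage here. It read 20.8 on the HSP27 transgenic array and 28.2 on the C57BL6/N array, a scaled level of -6.10 against -5.51. The difference was -0.59 ± 0.34, just past the threshold. The readings were 1.67 and 2.36 times the lowest signal well above background. The call rested on faint spots, and the difference was -0.22 with a normexp background correction. Ngp passed the threshold under 5 of 11 alternative settings, those of filter, outlier spots, probe choice and series table. These could hardly change a gene with 1 probe in 1 spot, and left it at -0.59. Under every other scaling, normalization or background correction Ngp lay within 1.5-fold. Its promoter window (RefSeq, GRCm38.p6, chr9:110419558-110419857 (+ strand)) is shown since Ngp was the late granule gene among the 9. Each window runs 5′ to 3′ from 250 bases before to 50 bases after the annotated start, and capitals mark matches to the motifs searched on both strands: the TATA box (TATAAA), the PU.1 core (GAGGAA) and a partial C/EBP palindrome (TTGCNNAA). PU.1 and C/EBP proteins are transcription factors known to drive granulocyte genes, and no matches overlap in the windows printed.
Ngp: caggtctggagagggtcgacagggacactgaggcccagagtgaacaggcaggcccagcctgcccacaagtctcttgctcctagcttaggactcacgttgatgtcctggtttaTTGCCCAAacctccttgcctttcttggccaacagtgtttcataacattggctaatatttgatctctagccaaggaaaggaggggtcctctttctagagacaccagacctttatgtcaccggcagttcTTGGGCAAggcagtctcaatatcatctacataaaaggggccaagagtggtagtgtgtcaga
Both stretches in capitals are matches to the C/EBP letters, at -138 and -11 from the start. These letters occur in 10.8% of 32841 RefSeq windows of the same length and in 3 of the 9 windows of the neutrophil genes. A match is a description of letters and shows no binding.

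The other late granule genes were set beside Ngp. Of 16 listed genes 14 were measured. Of these 9 were higher in the HSP27 transgenic lung and 0 lower, beside 10.2% and 8.31% of all measured genes. Their median was 0.70 beside -0.04 over all measured genes. Cyba counted among the 9 from 2 probes at 0.21 and 1.14, and with the brightest probe of each gene 8 were higher. With a normexp background correction 6 of the 14 were higher, and Camp (0.43), Cd177 (0.51) and Padi4 (0.49) were within 1.5-fold. Ltf, the iron-binding lactoferrin of specific granules, which airway glands also make, read 15554 on the HSP27 transgenic array and 617 on the C57BL6/N array, 22.7-fold higher. Lcn2, a siderophore-binding protein that epithelium makes too, was at 0.81, and Camp, the cathelicidin precursor, at 0.72. Mmp8, neutrophil collagenase, was at 1.22, as was Pglyrp1, a peptidoglycan-binding granule protein. Adam8, a membrane protease shared with macrophages, was at 1.25, Cd177, a neutrophil surface protein, at 0.84 and Padi4, the enzyme that citrullinates histones in neutrophils, at 0.69. Mmp9, gelatinase B, was at 0.34, within 1.5-fold, with 23.1 on the HSP27 transgenic array and 16.5 on the C57BL6/N array, and at -0.05 with normexp. These values stand beside the airway secretory list (7 of 8 higher, median 6.19) and the stratified epithelium list (6 of 6, median 2.50) on the same array, and the part of those tissues in them was not tested.

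**Figure D2:**
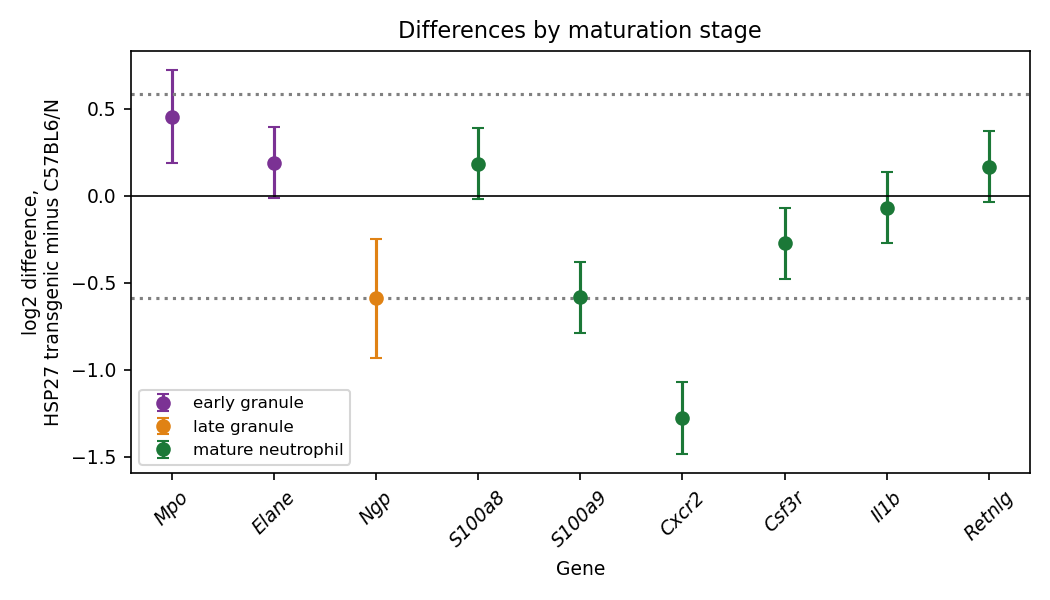
Log2 difference of each of the 9 genes, HSP27 transgenic minus C57BL6/N, coloured by maturation stage, with the software error as bars and 1.5-fold as dotted lines. Early granule genes lie above 0, and Ngp, S100a9 and Cxcr2 are the lowest, with Cxcr2 at -1.28.

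S100a8 and S100a9 encode the subunits of calprotectin, a calcium- and zinc-binding complex that fills the cytosol of neutrophils and is also made by monocytes and by stressed stratified epithelium. The genes lie next to each other on chromosome 3. S100a8 read 3243 on the HSP27 transgenic array and 2578 on the C57BL6/N array, a scaled level of 1.185 against 1.003. Its difference was 0.18 ± 0.20, within the software error but wider than the repeat-spot spread of 0.08. S100a9 read 7826 on the HSP27 transgenic array and 10584 on the C57BL6/N array, a scaled level of 2.46 against 3.04. Its difference was -0.58 ± 0.20, or 1.499-fold lower, which lies just short of the threshold. The signs were opposite, although that of S100a8 was within its software error, and S100a8 stood above S100a9 by 0.77 ± 0.29 in its difference. The gap was wider than the combined software error and than the combined repeat-spot spread of 0.12.

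The promoter windows of the pair (RefSeq, GRCm38.p6, chr3:90668821-90669120 (+ strand) for S100a8 and chr3:90695672-90695971 (- strand) for S100a9) are shown since the neighbours had differences of opposite sign. Capitals are as above.
S100a8: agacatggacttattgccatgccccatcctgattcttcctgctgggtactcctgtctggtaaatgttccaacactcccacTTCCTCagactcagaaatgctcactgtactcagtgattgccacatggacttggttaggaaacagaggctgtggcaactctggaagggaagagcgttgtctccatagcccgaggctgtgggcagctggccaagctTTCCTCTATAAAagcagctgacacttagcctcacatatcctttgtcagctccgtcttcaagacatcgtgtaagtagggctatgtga
S100a9: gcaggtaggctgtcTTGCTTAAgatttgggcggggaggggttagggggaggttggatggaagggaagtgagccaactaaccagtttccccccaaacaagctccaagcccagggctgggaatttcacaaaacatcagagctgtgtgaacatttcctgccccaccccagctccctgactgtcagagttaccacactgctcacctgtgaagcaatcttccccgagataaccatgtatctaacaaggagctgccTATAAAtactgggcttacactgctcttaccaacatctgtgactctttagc
The S100a8 window holds the PU.1 letters at -170 and -36, in reverse orientation, and a TATAAA at -30, which directly follows the second of them. The S100a9 window holds the C/EBP letters at -236 and a TATAAA that begins at base 1, the annotated start. TATAAA in either orientation occurs in 13.6% of all windows and in 3 of the 9 neutrophil windows, and GAGGAA in either orientation in 28.3% and in 5 of the 9.

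The rest of the S100 family and the receptors of calprotectin were set beside the pair. Of 14 measured S100 genes, which include S100a8 and S100a9, 3 were higher and 0 lower, with a median of 0.24. S100b was at 1.07 and S100a4, made by macrophages and fibroblasts, at 0.89. With the brightest probe of each gene 1 was lower, S100a16, whose probes were at -0.63 and -0.35 beside -0.58 for S100a9. Among 5 receptor genes the median was 0.42, with 0 lower and 1 higher, the lipopolysaccharide co-receptor Cd14 at 0.89, which is also a monocyte marker. Tlr4, the pattern receptor that calprotectin binds, was at 0.41, and Ager, which in lung chiefly marks alveolar type 1 cells, at -0.49.

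Cxcr2 had the largest difference of the 9 genes. It encodes the receptor for the CXC chemokines that carry a glutamate-leucine-arginine motif, and it draws neutrophils out of the marrow and into tissue. It read 104 on the HSP27 transgenic array and 227 on the C57BL6/N array, a scaled level of -3.78 against -2.51. The difference was -1.28 ± 0.21, so that the HSP27 transgenic signal was 41.3% of the C57BL6/N signal. Of all measured genes, 0.774% had a lower difference. Both readings were clear of background, at 8.31 (HSP27 transgenic) and 18.96 (C57BL6/N) times the lowest signal called well above it. With a normexp background correction the difference was -0.97, short of 2-fold. The promoter window (RefSeq, GRCm38.p6, chr1:74153744-74154043 (+ strand)) is shown as that of the gene with the largest difference.
Cxcr2: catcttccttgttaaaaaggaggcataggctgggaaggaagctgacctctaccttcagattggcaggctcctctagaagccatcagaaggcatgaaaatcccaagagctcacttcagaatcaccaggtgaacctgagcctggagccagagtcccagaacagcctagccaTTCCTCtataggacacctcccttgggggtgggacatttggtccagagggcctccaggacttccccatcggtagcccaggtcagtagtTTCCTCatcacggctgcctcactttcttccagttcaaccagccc
Its capitals are the PU.1 letters in reverse orientation, at -81 and at base 7 after the start.

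Cxcr1, the related chemokine receptor gene next to Cxcr2 on chromosome 1, was lower as well. It read 130.4 on the HSP27 transgenic array and 313 on the C57BL6/N array, a difference of -1.41 ± 0.21 or 2.66-fold lower. Whether the probes of these related genes also bind each other's message was not tested. Cxcr1 was the only gene past 1.5-fold downward among 24 measured genes of a wider mature neutrophil list of 27. In that list 8 were higher and the median was 0.20. Clec4e, a C-type lectin receptor for microbial glycolipids, was at 1.63 and Fcgr3, an IgG receptor, at 1.38. Il1r2, the decoy receptor for interleukin 1, was at 0.98. Fpr1, the formyl peptide receptor, was at 0.35, and Trem1, an amplifying receptor of neutrophils and monocytes, at -0.20, both within 1.5-fold. Ly6g, the usual surface marker of mouse neutrophils, had no probe matched here. Several genes of this list are shared with monocytes and macrophages, and the part of those cells was not tested. Of 7 measured monocyte markers 5 were higher and 0 lower (median 0.89), with Plac8 at 1.42 and the factor XIII subunit F13a1 at 1.30. Of 7 macrophage markers 5 were higher and 1 lower (median 0.73), with C1qa at 1.74 and C1qb at 2.41, both chains of complement C1q. Their summed scaled signal was 103 on the HSP27 transgenic array and 98.6 on the C57BL6/N array for monocytes, and 30.9 on the HSP27 transgenic array and 21.7 on the C57BL6/N array for macrophages. The monocyte sum mostly follows its brightest marker, Chil3, which read 127995 on the HSP27 transgenic array and 117493 on the C57BL6/N array, a difference of -0.02.

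**Figure D3:**
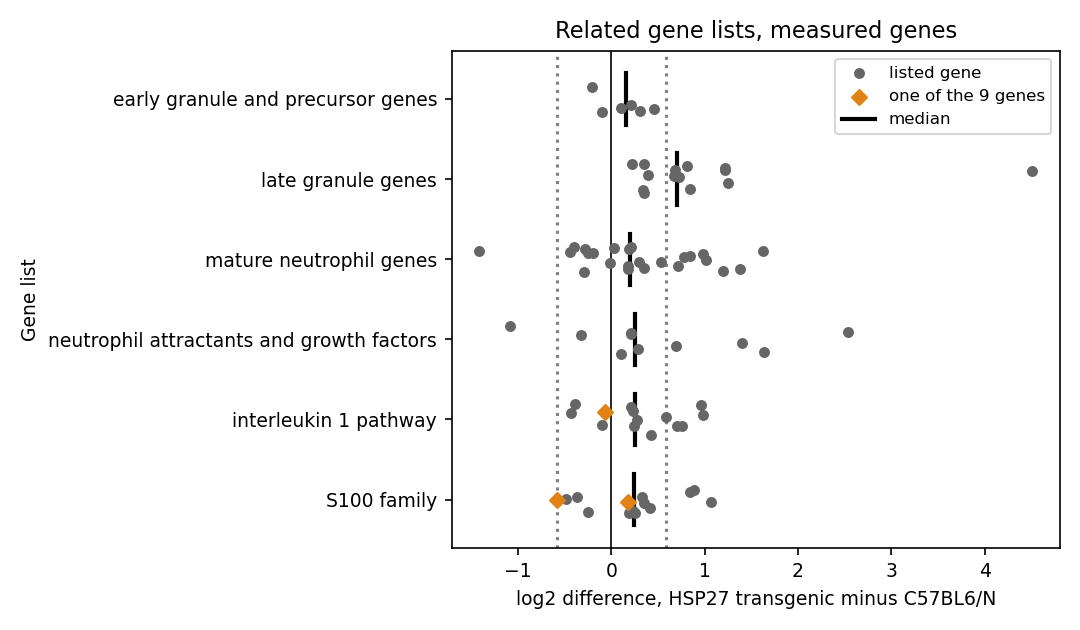
Log2 difference, HSP27 transgenic minus C57BL6/N, of measured genes in 6 lists, with the median as a bar, 1.5-fold as dotted lines and diamonds for members of the 9 genes. All measured late granule genes other than Ngp lie above 0 as processed here (median 0.70), and Cxcr1 is the lowest point of the mature neutrophil list at -1.41.

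Of the measured ligands of Cxcr2, Cxcl1 and Cxcl5 were higher and Ppbp was lower in the HSP27 transgenic lung. Of 16 listed attractants, growth factors and related genes 10 were measured, with 4 higher and 1 lower, a median of 0.25 and a mean of 0.57. With dim probes kept 8 of the 16 were higher and the median was 0.49. Cxcl1 read 144 on the HSP27 transgenic array and 49.3 on the C57BL6/N array, a difference of 1.40. Cxcl5, made by lung epithelium, read 98.1 on the HSP27 transgenic array and 28.4 on the C57BL6/N array, a difference of 1.64. With normexp Cxcl1 was at 0.87, Cxcl5 at 0.75 and Ppbp at -0.94, each short of 2-fold. Cxcl3 was well above background on the HSP27 transgenic array alone, at least 1.61-fold higher there. Ppbp, a ligand carried by platelets, was at -1.09, beside platelet markers of which 4 of 6 were lower (median -0.78), and Cxcl15, the chemokine of lung epithelium, at 0.21. Cxcl2 was not well above background on either array. Ackr1, which carries chemokines across the venule wall, was at 2.54 (1.90 with normexp). Of 8 measured genes of retention and ageing in the blood, 2 were higher and 1 lower (median 0.07). The P-selectin gene Selp was at 0.98 (0.59 with normexp). Cxcr4, the receptor that holds neutrophils in the marrow and is found on most leukocytes, was at -0.83. Its ligand Cxcl12 was at 1.21, from probes at 0.36 and 2.06.

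Csf3r encodes the receptor for granulocyte colony-stimulating factor, the growth factor that drives neutrophil production. It read 44686 on the HSP27 transgenic array and 48752 on the C57BL6/N array, a scaled level of 4.97 against 5.24. The difference was -0.27 ± 0.20, within 1.5-fold, and stood above that of Cxcr2 by 1.001 ± 0.29. Csf3, its ligand, was not well above background on either array. The probes of these receptors therefore did not share a size of difference, with Cxcr1 and Cxcr2 past 2-fold (Cxcr2 not so with normexp) and Csf3r within 1.5-fold. Each receptor had 1 probe, and whether the bright Csf3r probe also binds other messages was not tested.

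Il1b encodes interleukin 1 beta, a cytokine of activated neutrophils, monocytes and macrophages. It was printed in 10 spots, which gives the precision of a reading. The lowest, median and highest spot read 511, 542 and 596 on the HSP27 transgenic array, against 495, 515 and 569 on the C57BL6/N array. After scaling, the mean was -1.38 ± 0.07 on the HSP27 transgenic array and -1.31 ± 0.06 on the C57BL6/N array (SD over spots, n = 10 spots each), and the spots of the arrays overlapped. The difference was -0.07, in 9 of 10 spot positions below 0, and the spread of differences over positions had an SD of 0.04. Spots of 1 array share their RNA and say nothing of animals.

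**Figure D4:**
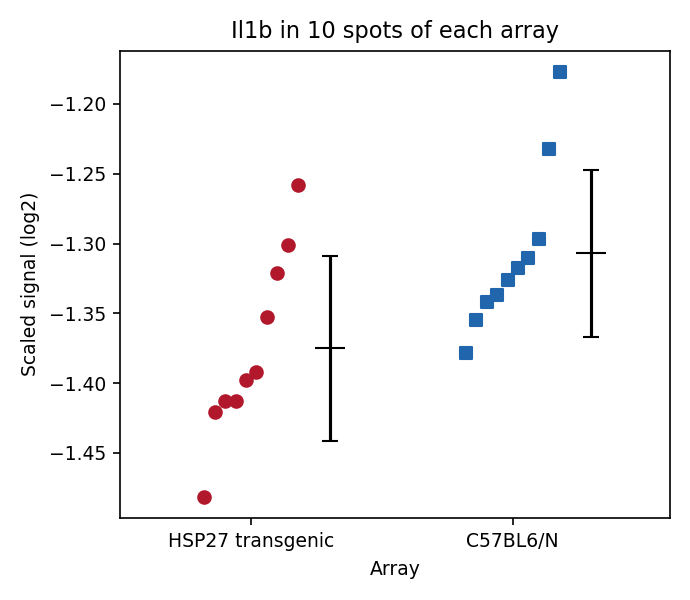
Scaled log2 signal of Il1b in each of 10 spots of the HSP27 transgenic array (left) and the C57BL6/N array (right), with mean and SD over spots as bars. The spots span -1.48 to -1.26 on the HSP27 transgenic array and -1.38 to -1.18 on the C57BL6/N array, and the ranges overlap.

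Other genes of interleukin 1 signalling were less even. Of 15 listed genes, Il1b included, 14 were measured, with 5 higher and 0 lower and a median of 0.26, and 3 were higher with normexp. Il1rn, the receptor antagonist, read 67.2 on the HSP27 transgenic array and 31.1 on the C57BL6/N array, a difference of 0.97 (0.37 with normexp), and the decoy receptor Il1r2 was at 0.98. Casp1, the protease that matures interleukin 1 beta, was at 0.76 and its adaptor Pycard at 0.70. The sensor Nlrp3 was at -0.39 with faint spots (20.7 on the HSP27 transgenic array, 24.4 on the C57BL6/N array), and the signalling receptor Il1r1 at 0.24. Il1a was well above background on the HSP27 transgenic array alone, with a bound of 1.26-fold.

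Retnlg encodes resistin-like gamma, a secreted protein of mature mouse neutrophils. It read 451 on the HSP27 transgenic array and 363 on the C57BL6/N array, a scaled level of -1.66 against -1.83. The difference was 0.17 ± 0.20, within the software error and no wider than the repeat-spot spread of 0.17. Its relatives were past 1.5-fold, with 2 of 3 measured family members higher, 0 lower and a median of 0.91. Retn, the resistin of fat cells, read 1188 on the HSP27 transgenic array and 27.8 on the C57BL6/N array, 38.6-fold higher, beside fat cell markers of which 3 of 3 measured, Retn among them, were higher. Retnla, made by alternatively activated macrophages and airway epithelium, was at 0.91.

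**Figure D5:**
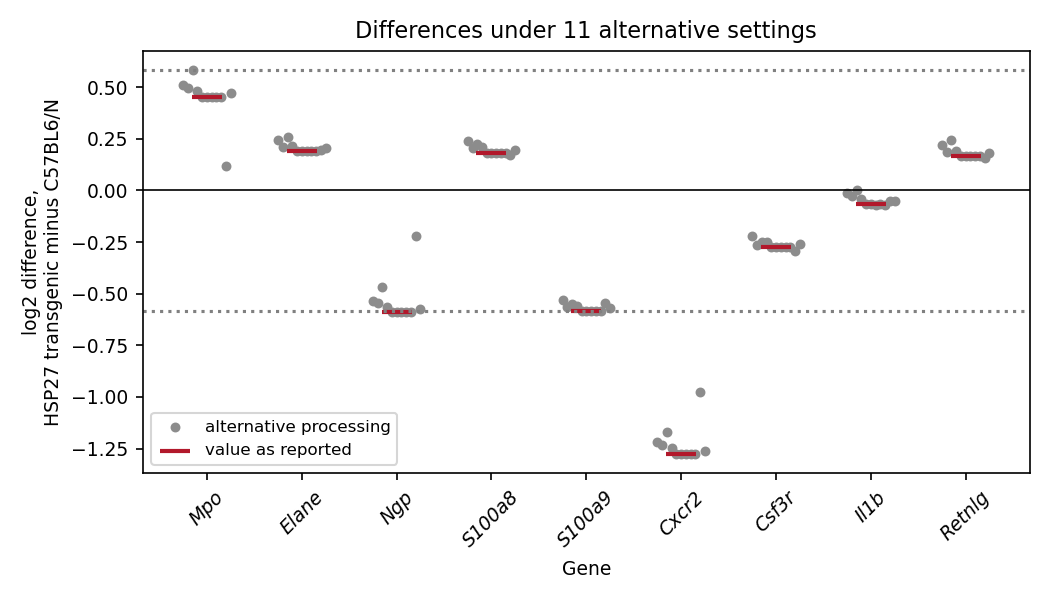
Log2 difference of each of the 9 genes, HSP27 transgenic minus C57BL6/N, as reported (bars) and under 11 alternative processing settings (grey points), with 1.5-fold as dotted lines. Cxcr2 stays past 1.5-fold in all 11, between -1.28 and -0.97. The settings of filter, outlier spots, probe choice and series table could hardly change these genes. S100a9 lies near the line, between -0.58 and -0.53, and Ngp ranges from -0.59 to -0.22.

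Set by stage, the differences were 0.45 and 0.19 for the early granule genes, -0.59 for the late granule gene, and from -1.28 to 0.18 with a median of -0.17 for the 6 mature genes. Of the mature genes 2 were above 0 and 4 below. Retnlg and S100a8, both abundant in mature cells, stood above Cxcr2, which had the difference farthest from 0 (1.44 ± 0.29 for Retnlg). The 9 genes did not move as a block: the range of differences within the mature stage was wider than the gap between the stages.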

How the data were processed

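RNA of whole lung was extracted with Trizol and labelled with Cy3, per the labels' protocols, and measured on 2 Agilent one-colour arrays, 1 per group. The deposited array files hold fluorescence intensity from Agilent Feature Extraction 11.5.1.1, background-subtracted and detrended but not normalized between arrays, and spot flags, per the file headers, which name mm9 as the build. The deposited series table, a linear intensity, equalled the processed signal within 0.1% at 39012 of 39012 probes with 1 unflagged spot, for each array. Of 39429 non-control probes, 69.5% (HSP27 transgenic) and 69.3% (C57BL6/N) were well above background, and no spot was saturated.

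Outlier spots were dropped, log2 signals averaged over spots, and the 75th percentile over non-control probes subtracted (1426 for HSP27 transgenic, 1287 for C57BL6/N). Probes with at least 50% of spots well above background on both arrays were averaged per gene. RefSeq accessions were matched to a GRCm38.p6 table (27508 probes, 69.8%), and promoter windows are RefSeq's. Bounds set the bright value against the dim array's detection limit or the dim reading, whichever was higher. Where the dim reading was higher, as for Prtn3, the value is a ratio of readings and no bound. The repeat-spot SD of a difference was 0.17, 0.09 and 0.08 in dim, middle and bright probes (105 each).

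The 9 genes and the 9 related and 14 marker lists were chosen with earlier results of these data known. Named genes are the 9, fixed genes of the related lists, up to 2 highest and 2 lowest per related list past 1.5-fold, and up to 2 per marker list, of which some are not reported here. Other genes in the text fall outside this rule and were chosen after their values were seen. Among them are Cebpe, Fcnb, Gfi1, Cebpa, Srgn, Cd63, Myb, Cd177, Padi4, Pglyrp1, Cyba, Casp1, Pycard and S100a16. Pf4, Scgb1a1, Chil3, the sex-linked genes and the markers not well above background are others. Other backgrounds, scalings, filters, probe choices and the series table were tried. Steps were tested on simulated data. Tools were R 4.3.3, limma 3.58.1, Python 3.11.15, pandas 2.3.3, numpy 2.4.6 and matplotlib 3.10.9.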

Additional observations from a re-analysis of the deposited data

How the results depend on the processing

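No paired analysis was possible because there is 1 array per group. Differences of the 9 genes were recomputed under 11 alternatives, of which the 75th percentile over spots was added after seeing the data, as was a list median without the 9 genes. All 9 kept their sign, except Il1b with cyclic loess (0.00). The filters on dim probes, outlier spots kept, the brightest probe and the series table could hardly change genes with 1 probe each. Only the scalings, normalizations and normexp could move them. The count at least 1.5-fold lower, 2 as reported, was 1 with median scaling, quantile normalization, cyclic loess, the 75th percentile over probes well above background, the 75th percentile over spots and normexp on medians, where Ngp lay within 1.5-fold. The count at least 2-fold lower, 1 as reported, was 0 with normexp on medians, where Cxcr2 was at -0.97, Ngp at -0.22 and Mpo at 0.12. That correction adds an offset of 50 to each signal, which by construction shrinks the differences of dim probes. How much of the shift came from the offset was not tested. The 1.5-fold counts over all measured genes, 1582 higher and 1287 lower as reported, were 980 and 682 under that correction and 2526 and 2080 when dim probes were kept. Late granule genes had medians from 0.50 (normexp on medians) to 0.81 (cyclic loess), and a mean of 0.97. Retention genes had 1 higher and 2 lower with the brightest probe of each gene. Signal near background limits Mpo and Ngp most. Normexp was run on median pixel signals with spots left out where the local background reached the signal.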

Other observations

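Markers of several other blood cells were level or lower in the HSP27 transgenic lung. Past 1.5-fold, 4 of 6 platelet and megakaryocyte markers were lower and 0 higher (median -0.78), with the collagen receptor Gp6 at -1.17 and Ppbp at -1.09, while Pf4, another platelet chemokine, was at 0.05. Of 5 B cell markers 3 were lower (median -0.74), with the kinase Blk at -0.87. The 7 markers of T and NK cells centred on -0.15, with 1 lower, the NK receptor Ncr1 at -1.32. Among 4 measured erythroid markers 0 were past 1.5-fold (median -0.25).

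Markers of other granulocytes were measured in part. Of 6 eosinophil markers the granule genes Epx, Prg2 and Prg3 and the receptor Ccr3 were not well above background on either array. The 2 measured ones had a median of -0.60, with Siglecf, which alveolar macrophages carry too, at -0.83. Of 8 mast cell and basophil markers, the basophil protease Mcpt8 and the IgE receptor chains Fcer1a and Ms4a2 were not well above background on either array, and of 4 measured genes 2 were lower (median -0.14), Kit at -0.73 and the tryptase Tpsb2 at -0.61.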
